A study of Apostichopus japonicus with 12 samples.

Results

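The comparison described here sets low oxygen alone against control in gut tissue of Apostichopus japonicus, a bottom-dwelling sea cucumber that is farmed for food, with whole intestine sampled. Its members are all gene models with an FPKM (fragments per kilobase of model, scaled to an effective library size) of at least 1 in at least 3 of the 12 libraries of the series. That rule kept 15615 of 26461 models, of which 12248 were predicted genes and 3367 were models assembled from reads, and 10846 models lay below it. The series asked how high temperature and low dissolved oxygen, alone and together, alter gene expression in this tissue. Low oxygen animals were held at 18 °C in water brought to 3 mg/L dissolved oxygen with nitrogen gas, and controls at 18 °C, both for 6 h, with 3 libraries per group. The labels give no oxygen level for the control, while the series text gives 3 mg/L for it, the same as in the low oxygen group, so the size of the oxygen step is in doubt and the groups are used as labelled. The high temperature group (26 °C, 7 mg/L) and the combined group (26 °C, 3 mg/L), each with 3 libraries at 6 h, differ in oxygen in warm water and share no library with the main comparison; since the control's oxygen is in doubt, that step need not equal the one at 18 °C. The sources used here give neither strain nor age, and no group carries an allele or a further agent.

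In animals, a drop in oxygen slows the prolyl hydroxylases (EGLN) that mark hypoxia-inducible factor alpha (HIF) for destruction, so HIF builds up as protein, pairs with ARNT and switches on genes of glycolysis, oxygen transport and mitochondrial turnover. Much of this control acts on protein, and HIF mRNA need not move with it. The sea cucumber intestine takes up and stores food, holds much lipid, and lies in body fluid that carries coelomocytes, the immune cells of echinoderms.

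The libraries held 8146906 to 10279095 recovered fragments in the control and 9492598 to 10855050 at low oxygen. The 10 most abundant models took 19.8 to 35.9% of fragments in the control and 27.2 to 28.9% at low oxygen, and models on the scaffold that carries the mitochondrial genes took 8.97 to 20.5% and 5.92 to 8.02%, with the highest share in control 1. Libraries correlated at 0.75 to 0.86 within the control, 0.83 to 0.87 within low oxygen and 0.74 to 0.85 between these groups (Pearson r over 3, 3 and 9 pairs, across genes, which are not independent replicates), so the groups were not separate in overall similarity. RNA was extracted per animal, but tanks are not mentioned in the labels, so p-values here measure the spread between these samples only, which may be partly technical. Digestive enzyme models, the check on the labelled tissue, summed to 1854 to 3560 FPKM in the control and 2247 to 2966 FPKM at low oxygen.

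A single model of the 15615 passed the threshold (limma, adjusted p under 0.05), which is 0.0064% of those tested, and it was lower at low oxygen. No model was called higher. At an unadjusted p under 0.05 there were 984 models (6.3%), 350 of them higher (2.24%) and 634 lower (4.06%), and limma voom on recovered fragments called 0, with 1072 at an unadjusted p under 0.05. With library weights, limma called 185, of which 46 were higher and 139 lower. The 3 low oxygen and 3 control libraries did not overlap in 2535 models (16.2%), with 1183 higher (7.58%) and 1352 lower (8.66%) at low oxygen, and these shares are the background for every list below. In a design of 3 against 3, the smallest p that an exact two-sided permutation test can give for 1 gene is 0.1. Everything named below apart from the called model missed the threshold, and its values are given as measured. Since whole intestine was sampled, fewer cells of a type and less RNA per cell cannot be told apart in any of them.

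The called model is an unnamed assembled transcript on the minus strand of chromosome 2, from 42195405 to 42198379, in the coordinates of the deposited table, whose genome build is not named in the sources at hand. It measured 15.8, 8.85 and 31.5 FPKM in the control libraries and 0.107, 0 and 0.056 FPKM at low oxygen. All 3 low oxygen libraries thus lay near 0, and their 6 fragments compare with 1901 in the control. On the scale of log2(FPKM + 1), on which all differences below are given, it fell by 4.06 (SE 0.50, adjusted p = 0.0438, lower in all 3 libraries). The call was lost in most alternative fits, among them those without control 1, control 3 or any low oxygen library (adjusted p from 0.0589 to 0.192). It measured a mean of 0.072 FPKM at high temperature and 0.661 FPKM in the combined group, where combined 2 alone was above 0, at 1.98 FPKM. The model passed the filter through the control libraries, the group in which it was high.

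The model begins 2 bases past the end of a model matched to Slc22a3, an organic cation transporter, which runs on the plus strand from 42180327 to 42195403 in 9 exons. This Slc22a3 model measured 2.17, 20.8 and 89.9 FPKM in the control and 0.221, 0.046 and 0 FPKM at low oxygen. Its groups did not overlap either, with a log2 difference of -4.09 (SE 0.88, adjusted p = 0.281), and the control libraries spread widely. The models do not overlap, and whether they belong to 1 transcription unit was not tested; the protocol in the labels names no step that marks the strand. A second Slc22a3 model, 20581 bases from the called model, measured 1.37 to 2.04 FPKM in the control and 0.046 to 0.323 FPKM at low oxygen. The next model on the other side, legumain (Lgmn, a lysosomal protease), measured a mean of 723 FPKM in the control and 725 FPKM at low oxygen, so the difference did not extend to it. These neighbours were picked for their position, after the call was known.

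**Figure D1:**
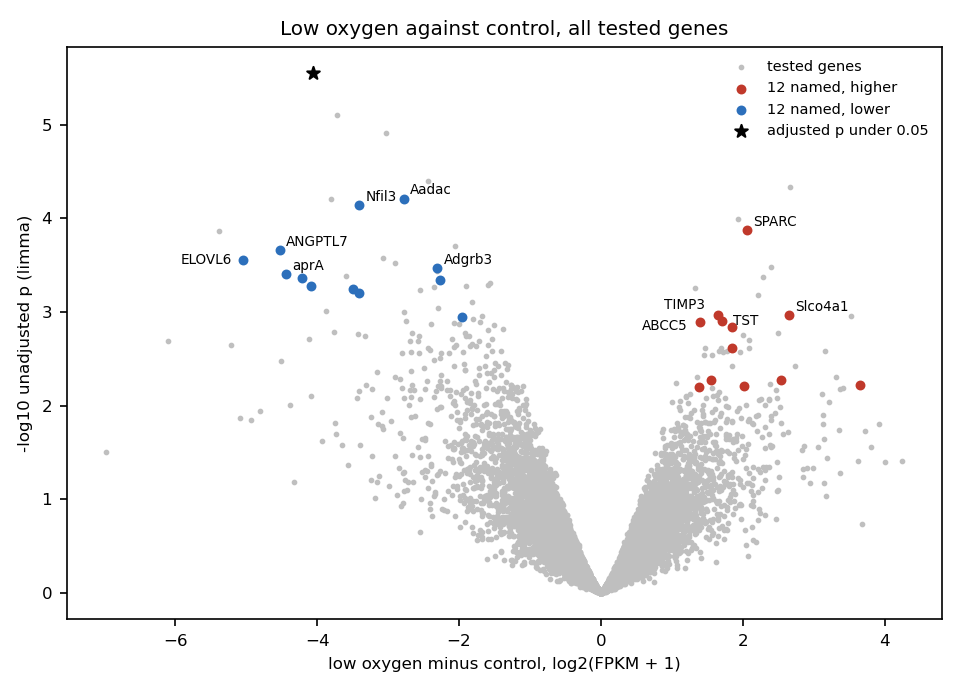
Difference between low oxygen and control (x axis, log2 of FPKM + 1) against unadjusted p from limma (y axis, -log10) for the 15615 tested models, with 1 point per model. The star is the called model at -4.06, and the coloured points are the 12 named genes in each direction, none of which passed the threshold.

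The genes of oxygen sensing showed no called difference. Of 23 models in the HIF and oxygen sensing list 20 were tested, 0 were called and 0 had an unadjusted p under 0.05. The difference was positive in 16 (80%, against 50.8% of all genes, with 49.2% negative), and the median was log2 0.36 against 0.01 over all tested genes. Only 1 member was higher without overlap (5%, below the 7.58% of all genes), and 0 were lower. That member was tgo, the ARNT partner of HIF (chromosome 16, 1324657 to 1349600, 16 exons), with 6.55, 11.96 and 11.8 FPKM in the control and 18.1, 18.2 and 18.9 FPKM at low oxygen. The low oxygen libraries were close together and above all controls, with a log2 difference of 0.85 (SE 0.55, adjusted p = 0.834).

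HIF-1 alpha (hif1a) measured 163, 122 and 60.5 FPKM in the control and 111, 114 and 324 FPKM at low oxygen. Low oxygen 3 was the highest of the 6 libraries, and the other low oxygen libraries lay inside the range of the controls. Epas1, the model matched to HIF-2 alpha, was near the detection filter, at 0.44 to 1.86 FPKM in the control and 0.601 to 1.97 FPKM at low oxygen. The prolyl hydroxylase EGLN1, itself a classic HIF target in vertebrates, measured 6.88, 10.2 and 59.9 FPKM in the control and 34.2, 44.3 and 27.6 FPKM at low oxygen. Control 3 alone stood above the low oxygen range, and the log2 difference of 1.03 had an SE of 0.99. No tested model carried the symbol of the sentinels VHL or HIF1AN, and models below the filter were not searched for them.

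The classic targets downstream did not separate either. Lactate dehydrogenase A (ldha), which turns pyruvate to lactate, measured 14.6, 13.3 and 31.5 FPKM in the control and 23.3, 21.8 and 12.2 FPKM at low oxygen, and its log2 difference of 0.00 (SE 0.56) changes sign between fits. Pyruvate dehydrogenase kinase (Pdk2), which inhibits pyruvate dehydrogenase, measured 292, 191 and 116 FPKM in the control and 266, 183 and 78.2 FPKM at low oxygen. The mitophagy receptor BNIP3 measured 51.1, 18.3 and 15.1 FPKM in the control and 25.2, 30.6 and 38.2 FPKM at low oxygen. The groups overlapped in each of these genes. Of 41 tested models of glycolysis, gluconeogenesis and lactate transport, 4 were higher (9.76%, against 7.58%) and 3 lower (7.32%, against 8.66%) without overlap, near the background. Their median was log2 0.01. The member of that list with the smallest p was SLC2A5, a fructose transporter, at 17.4, 6.35 and 25.2 FPKM in the control and 3.17, 1.44 and 0.332 FPKM at low oxygen (log2 difference -2.68, SE 0.77, adjusted p = 0.546).

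Oxygen and iron carriers overlapped as well. The coelomic globin C measured 15.4, 26.3 and 74.5 FPKM in the control and 31.9, 59.9 and 21.6 FPKM at low oxygen. The other 3 tested globin models, androglobin (ADGB) and 2 with a globin domain but no name, had adjusted p-values of 0.878 to 0.924, and 0 of the 4 had libraries that did not overlap. Soma ferritin, the iron store and the most abundant ferritin, measured 13904, 7938 and 5407 FPKM in the control and 11700, 8878 and 7523 FPKM at low oxygen.

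Among models with a gene symbol, the 12 with the most negative test statistic, taken among those whose libraries did not overlap and whose higher group averaged at least 5 FPKM, included several enzymes that make fatty acids. ELOVL6, which lengthens fatty acids, measured 36.4, 32.8 and 155 FPKM in the control and 2.86, 0.192 and 0.192 FPKM at low oxygen (chromosome 8, 3373410 to 3374243, 1 exon). ACLY, which makes the cytosolic acetyl-CoA they are built from, measured 45.8, 60.6 and 154 FPKM in the control and 17.4, 12.7 and 14.99 FPKM at low oxygen (chromosome 20, 305463 to 338978, 28 exons). D12Des, a desaturase that adds a double bond, measured 10.8, 9.27 and 113 FPKM in the control and 1.12, 0 and 0 FPKM at low oxygen. In these genes the low oxygen libraries were uniformly low and control 3 was far above the other controls. The log2 differences were -5.04 (SE 1.01) for ELOVL6, -2.26 (SE 0.48) for ACLY and -4.22 (SE 0.89) for D12Des, each with an adjusted p of 0.281.

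Their partners in the pathway had the same order. Stearoyl-CoA desaturase 5 (SCD5) measured 21.3, 166 and 375 FPKM in the control and 7.23, 0.242 and 1.70 FPKM at low oxygen, with an adjusted p of 0.435. Fatty acid synthase (FASN), which was chosen after its values were seen, measured 22.8, 327 and 244 FPKM in the control and 12.05, 7.47 and 16.5 FPKM at low oxygen. In both, control 1 was the control nearest to the low oxygen range and the other controls lay far above it. Over the whole list of fatty acid synthesis and storage, 7 of 37 tested models were lower without overlap (18.9%, against 8.66% of all genes) and 1 was higher, but 19 differences were positive and the median was log2 0.03, so the list as a whole did not share the low values. The list summed to 465, 953 and 1327 FPKM in the control and 404, 478 and 409 FPKM at low oxygen. In warm water without the oxygen step the mean was 0.783 FPKM for ELOVL6, 11.5 FPKM for ACLY and 1.40 FPKM for FASN. In the combined group the means were 5.45, 22.2 and 14.3 FPKM. That of ELOVL6 came from combined 2, at 16.1 FPKM, against 0.244 FPKM in combined 1 and 0 FPKM in combined 3. These groups are set against the same controls, which were the high ones.

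Genes that burn fatty acids, in mitochondria and peroxisomes, were lower more broadly. Of 92 models in the list 79 were tested and 0 were called. Of these, 20 were lower without overlap (25.3%, against 8.66%) and 1 was higher (1.27%, against 7.58%), 14 had an unadjusted p under 0.05 and were lower, 59 of 79 differences were negative and the median was log2 -0.57. CROT, which passes medium-chain acyl groups out of peroxisomes, measured 34.7, 173 and 288 FPKM in the control and 7.63, 4.69 and 6.09 FPKM at low oxygen (log2 difference -4.11, SE 1.05, adjusted p = 0.435). The acyl-CoA dehydrogenase ACADL measured 3.25, 5.79 and 43.1 FPKM in the control and 0.415, 0.345 and 1.55 FPKM at low oxygen. Enoyl-CoA isomerase Eci1 measured 3.34, 5.42 and 20.5 FPKM in the control and 1.27, 0.069 and 0.185 FPKM at low oxygen. Each was below all controls in all 3 low oxygen libraries, and control 3 was again the highest. ACADL and Eci1 passed the filter only because the controls counted, the group in which they were high.

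The rate-limiting step of mitochondrial fatty acid import showed a smaller difference. CPT1A, chosen after its values were seen, measured 9.37, 9.45 and 9.87 FPKM in the control and 4.98, 2.86 and 7.33 FPKM at low oxygen (log2 difference -0.87, SE 0.42, adjusted p = 0.792). Here the controls were tight and the low oxygen libraries spread. The list summed to 774, 874 and 2088 FPKM in the control and 464, 760 and 634 FPKM at low oxygen, and without control 3 its median was log2 -0.37.

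The other genes among the 12 lower ones belong to several functions. ANGPTL7, a secreted protein with a fibrinogen-like domain, was the most abundant of them, at 279, 260.2 and 501 FPKM in the control and 8.99, 9.07 and 28.8 FPKM at low oxygen (chromosome 23, 14477129 to 14485280, 6 exons). Its log2 difference was -4.53 (SE 0.88, adjusted p = 0.26), with a wide gap between the groups. A fibrinogen-like protein A model without a symbol, best matched to another sea cucumber, measured 46.2, 31.9 and 71.6 FPKM in the control and 1.71, 3.25 and 2.63 FPKM at low oxygen, with an adjusted p of 0.137. Against these, the list of lectins, fibrinogen-related proteins and scavenger receptors counted 18 of 157 higher (11.5%, against 7.58%) and 15 lower (9.55%, against 8.66%) without overlap. Its median was log2 0.32, so the direction of these members was not that of the list.

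Nfil3, a transcription factor that represses its targets and follows the circadian clock in mammals, measured 6.03, 7.27 and 43.5 FPKM in the control and 0.352, 0.252 and 0.275 FPKM at low oxygen (log2 difference -3.41, SE 0.59, adjusted p = 0.14). Arylacetamide deacetylase (Aadac), an esterase of the endoplasmic reticulum (ER), measured 6.89, 10.5 and 6.86 FPKM in the control and 0.078, 0.443 and 0.403 FPKM at low oxygen (log2 difference -2.78, SE 0.47, adjusted p = 0.137). Aadac was the member with even controls. VhaA, the catalytic subunit of the proton pump of lysosomes and other acid compartments, measured 16.1, 27.9 and 29.2 FPKM in the control and 4.64, 4.37 and 7.39 FPKM at low oxygen. The remaining members were Slc22a3, described above, the adhesion receptor Adgrb3, aprA, named for a factor of Dictyostelium that limits proliferation, the dehydrogenase dhrs-4, and CE0034, matched to a bacterial kinase entry. Their adjusted p-values were 0.281 to 0.297, and their low oxygen values 0 to 4.65 FPKM. Nfil3, Slc22a3, Adgrb3, aprA and CE0034 reached 1 FPKM in 3 libraries only with the controls counted. They passed the filter through the group in which they were high, so their values are not independent of the filter. Models that passed in this way also count in the shares of lists and of all genes. In 10 of the 12 lower genes control 3 was the highest control, against 41.9% of all 1352 models that were lower without overlap, and no part of control 3 in these results was tested beyond leaving it out.

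The 12 named genes in the other direction included SPARC, TIMP3 and Svep1, proteins of the extracellular matrix. SPARC, a collagen-binding matrix protein, was present at 5.32, 3.80 and 2.13 FPKM in the control and 14.2, 25.05 and 16.3 FPKM at low oxygen, and a second matrix gene of the 12, Svep1, an adhesion protein with sushi domains, at 1.92, 3.43 and 0.972 FPKM and then 11.3, 5.92 and 4.32 FPKM. TIMP3, an inhibitor of the metalloproteinases that cut matrix, measured 14.9, 18.7 and 11.5 FPKM in the control and 41.5, 50.9 and 53.3 FPKM at low oxygen. A further TIMP3 model, chosen after its values were seen, measured 4.63, 7.12 and 2.91 FPKM in the control and 30.3, 19.96 and 64.8 FPKM at low oxygen. All 4 were higher in every low oxygen library than in any control, and none passed (adjusted p from 0.194 for SPARC to 0.72 for the further TIMP3 model).

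Over the matrix list, 70 of 108 models were tested and 0 were called. Of those tested 12 were higher without overlap (17.1%, against 7.58%) and 2 lower (2.86%, against 8.66%), 6 had an unadjusted p under 0.05 and all of these were higher, and the median was log2 0.44. An abundant member was the model matched to agrin (AGRN), a proteoglycan of basement membranes. The model has 1354 bases, and a Kazal-type domain is the only domain named for it. It measured 102, 377 and 323 FPKM in the control and 562, 1173 and 3605 FPKM at low oxygen. The list was also read in place of markers of connective tissue. Those were planned as fibrillar collagens, SPARC and fibrillin, so the list is broader than they are. The list summed to 1670 to 2855 FPKM in the control and 3723 to 6174 FPKM at low oxygen, with the lowest sum in control 3. Of its members, 9 were at 0 in all 6 libraries. The AGRN model carried a large part of this difference. Its 562, 1173 and 3605 FPKM are part of low oxygen sums of 3723, 3783 and 6174 FPKM. Without control 3 its median was log2 0.16, and the part of tissue makeup was not tested.

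Other genes of the 12 handle transport and detoxification. Slco4a1, an uptake carrier for organic anions and thyroid hormone in mammals, measured 1.57, 1.60 and 0.753 FPKM in the control and 7.38, 13.9 and 22.3 FPKM at low oxygen (log2 difference 2.65, SE 0.63, adjusted p = 0.406). Thiosulfate sulfurtransferase (TST), a mitochondrial enzyme of sulfide and cyanide disposal, measured 3.13, 4.01 and 3.72 FPKM in the control and 12.6, 15.2 and 14.4 FPKM at low oxygen (log2 difference 1.71, SE 0.41, adjusted p = 0.412). Both groups were tight in TST. The export pump ABCC5 measured 1.68, 2.19 and 2.20 FPKM in the control and 9.85, 5.75 and 5.76 FPKM at low oxygen. CYP2B4, a cytochrome P450, the phospholipase Plce1, the adhesion receptor ADGRD1, lrrc58 and tmem132e made up the rest beside HSP70IV, described next, and averaged 1.77 to 2.87 FPKM in the control and 6.92 to 19.6 FPKM at low oxygen. In 7 of the 12 higher genes control 3 was the lowest control, against 35.8% of all 1183 models that were higher without overlap.

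**Figure D2:**
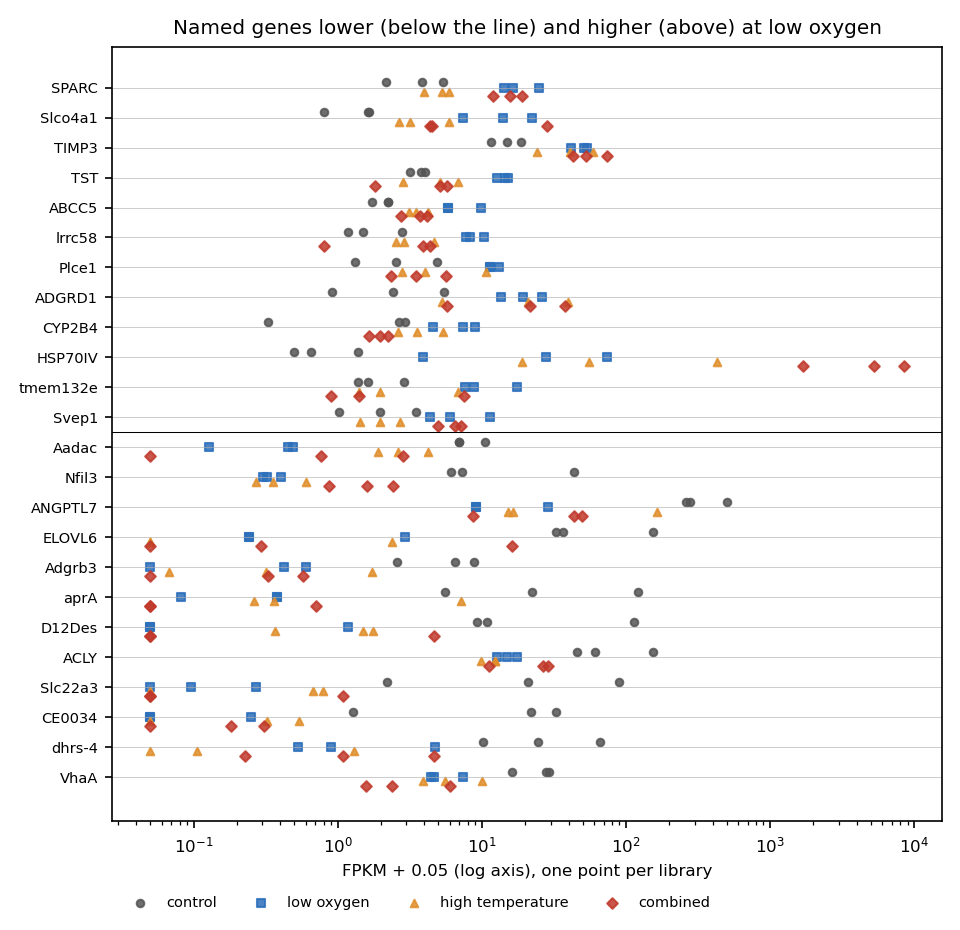
FPKM of the 12 named genes higher and 12 named genes lower at low oxygen (log axis, 0.05 added so that 0 can be drawn), with 1 point per library in all 4 groups. Blue squares (low oxygen) and grey circles (control) do not overlap in any row, which is how the genes were chosen; HSP70IV is the row in which the combined libraries stand far to the right.

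Chaperones of the cytosol were higher at low oxygen in some members. The stress-inducible HSP70IV model on chromosome 2 (16541950 to 16546332, 2 exons) measured 0.449, 1.33 and 0.605 FPKM in the control and 27.98, 74.3 and 3.89 FPKM at low oxygen. A second HSP70IV model measured 0.39, 2.46 and 1.20 FPKM in the control and 19.4, 61.5 and 5.62 FPKM at low oxygen, and the small heat shock protein hspb1, chosen after its values were seen, 0, 0.582 and 0.896 FPKM and then 22.1, 86.8 and 2.43 FPKM. In all 3 genes low oxygen 2 was the highest of the 6 libraries at 18 °C and low oxygen 3 was only a few FPKM above the controls. The log2 differences were 3.65 (SE 1.10), 3.21 (SE 1.04) and 3.73 (SE 1.38), with adjusted p of 0.607, 0.633 and 0.72. The sources at hand do not say how reads matching several near-identical copies were counted, and the level of each copy is uncertain.

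AHSA1, which activates the HSP90 ATPase, differed more evenly, with 4.46, 5.21 and 3.59 FPKM in the control and 13.8, 16.5 and 10.2 FPKM at low oxygen (log2 difference 1.41, SE 0.52, adjusted p = 0.72). HSP90-beta itself (hsp90ab1) measured 49.8, 72.1 and 79.3 FPKM in the control and 145, 89.6 and 147 FPKM at low oxygen. In the list of cytosolic heat shock proteins and co-chaperones, 11 of 46 were higher without overlap (23.9%, against 7.58%) and 0 lower, with a median of log2 0.33 and 0 called. The list summed to 704 to 776 FPKM in the control and 977 to 1161 FPKM at low oxygen, far below the 3233 to 8832 FPKM of the high temperature group.

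ER chaperones and genes of the unfolded protein response formed the list with the largest share of higher members among the 35 lists. Of 40 tested, 13 were higher without overlap (32.5%, against 7.58%) and 1 lower, 33 differences were positive and the median was log2 0.45, with 0 called and 0 at an unadjusted p under 0.05. Each difference was small. Calreticulin (CALR), a lectin chaperone, measured 52.1, 59.0 and 69.9 FPKM in the control and 112, 94.8 and 82.6 FPKM at low oxygen (log2 difference 0.67, SE 0.32, adjusted p = 0.792). Xbp1, the transcription factor of this response, chosen after its values were seen, measured 92.1, 125 and 137 FPKM in the control and 208, 181 and 305 FPKM at low oxygen. BiP (HSPA5), the main HSP70 of the ER, measured 78.3, 70.1 and 60.2 FPKM in the control and 160, 70.9 and 160 FPKM at low oxygen. Low oxygen 2 was close to the controls in BiP, and the other 2 were above. The summed list was tight in the control, at 1145, 1163 and 1180 FPKM, against 1718, 1570 and 1749 FPKM at low oxygen.

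Ribosomal protein genes were lower at low oxygen by a small and even amount. Of the 77 cytosolic ribosomal proteins, all tested, 53 were lower without overlap (68.8%, against 8.66% of all genes) and 0 higher, 76 differences were negative and the median was log2 -0.65, with 0 called and 0 at an unadjusted p under 0.05. RPLP2, an acidic protein of the large subunit, measured 1667, 1173 and 1977 FPKM in the control and 860.1, 548 and 1403 FPKM at low oxygen, where the groups overlapped. The list summed to 113650, 81182 and 84818 FPKM in the control and 52236, 51063 and 74904 FPKM at low oxygen. The 77 genes are not 77 independent observations, since each library contributes to all of them, and near-identical copies are uncertain here too. Translation factors did not share the pattern: 0 of 53 were lower without overlap and the median was log2 -0.03.

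The mitochondrial set was lower in several lists at once. Mitochondrial ribosomal proteins, which build the organelle's own ribosome, counted 20 of 67 lower without overlap (29.9%, against 8.66%) and 1 higher, with 11 lower at an unadjusted p under 0.05 and a median of log2 -0.49. MRPL21 was the clearest, at 19.5, 19.8 and 18.6 FPKM in the control and 5.08, 6.86 and 6.599 FPKM at low oxygen, with both groups tight (log2 difference -1.51, SE 0.37, adjusted p = 0.414). In mRpL32 and MRPS21 the groups also did not overlap, at lower levels of 1.69 to 7.34 FPKM in the control and 0 to 3.55 FPKM at low oxygen. The list summed to 421 to 499.9 FPKM in the control and 296 to 357 FPKM at low oxygen.

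Of 80 nuclear genes of oxidative phosphorylation, the chain that uses oxygen to make ATP, 26 were lower without overlap (32.5%) and 0 higher, and the median was log2 -0.46. By complex, the count was 12 of 35 in complex I, 3 of 13 in complexes II and III, 6 of 20 in complex IV with cytochrome c, and 5 of 12 in complex V. In complex I, which takes electrons from NADH, Ndufv2 measured 21.6, 17.8 and 26.9 FPKM in the control and 8.32, 12.4 and 11.1 FPKM at low oxygen. In complex IV, which passes electrons to oxygen, COX6C measured 364, 315 and 587 FPKM in the control and 153, 213 and 268 FPKM at low oxygen. In complex V, the ATP synthase, ATP5F1D measured 125, 111 and 139 FPKM in the control and 51.6, 59.2 and 90.8 FPKM at low oxygen. None of these overlapped between groups, and the adjusted p-values were 0.72 to 0.771. The tricarboxylic acid cycle, which feeds the chain, counted 6 of 34 lower without overlap (17.6%) and 0 higher, with a median of log2 -0.28, or -0.12 without control 3.

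Genes of the mitochondrial genome itself were dominated by control 1. Cytochrome c oxidase subunit 1 (COI) measured 30787, 11014 and 9565 FPKM in the control and 6453, 8570 and 8896 FPKM at low oxygen. Among the 6 libraries at 18 °C, control 1 stood far from the rest here and was the highest in ND5 and MT-CYB as well, with log2 differences of -0.79 (SE 0.59) and -0.61 (SE 0.63). The outer membrane import receptor Tomm22, from the list of mitochondrial quality control, measured 13.4, 11.4 and 11.3 FPKM in the control and 3.05, 3.21 and 4.04 FPKM at low oxygen (log2 difference -1.56, SE 0.59, adjusted p = 0.72). In that list 4 of 38 were lower without overlap (10.5%), close to the background of 8.66%.

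**Figure D3:**
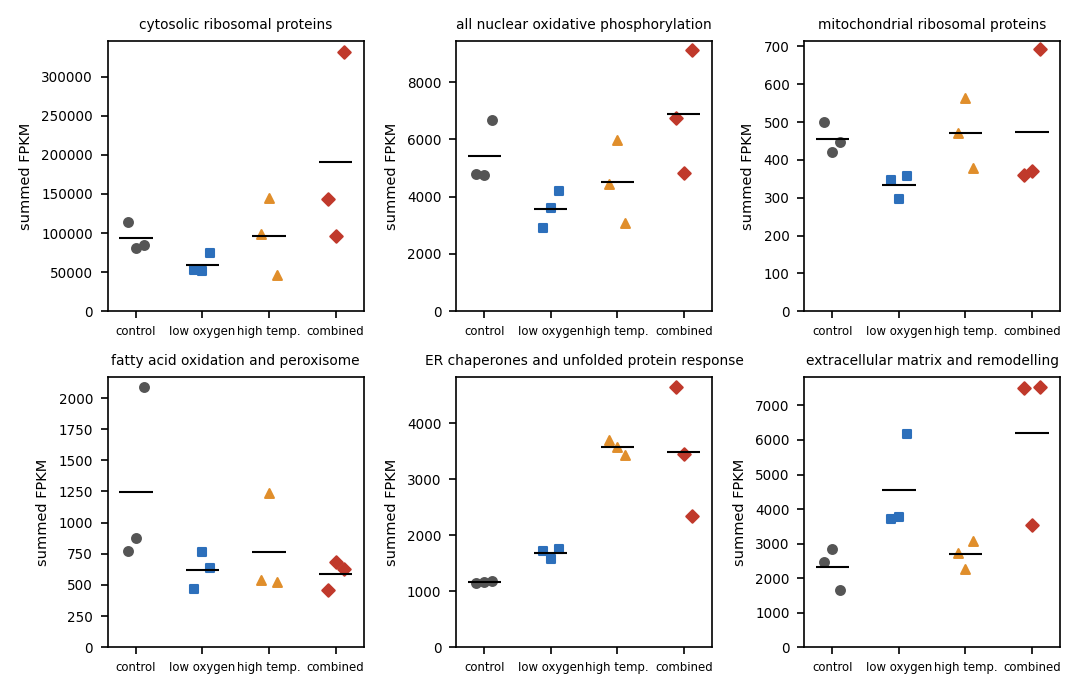
Summed FPKM of 6 gene lists in each library, with a horizontal bar at the group mean of 3 libraries. Low oxygen libraries lie below all controls in the first 4 panels and above all controls in the ER and extracellular matrix panels; control 3 carries the high point of fatty acid oxidation at 2088 FPKM.

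Digestive enzymes split in both directions. Of 74 tested, 12 were lower (16.2%, against 8.66%) and 7 higher (9.46%, against 7.58%) without overlap, and 11 lower and 5 higher had an unadjusted p under 0.05. Carboxypeptidase A4 (CPA4), which trims peptides, measured 5.67, 8.77 and 168 FPKM in the control and 0.821, 0.151 and 1.11 FPKM at low oxygen. Maltase-glucoamylase (MGAM), a brush border enzyme that frees glucose, measured 3.34, 8.17 and 21.3 FPKM in the control and 1.21, 1.37 and 1.42 FPKM at low oxygen, and a model matched to angiotensin-converting enzyme (ACE), a peptidase, 3.52, 7.19 and 23.7 FPKM and then 0.511, 1.51 and 0.122 FPKM. Control 3 was the highest library in all 3, and each had an adjusted p of 0.435. The uptake carrier slc5a8, for short-chain fatty acids and lactate, measured 5.33, 4.56 and 14.9 FPKM in the control and 0.868, 1.26 and 1.74 FPKM at low oxygen, while the 244 solute carriers as a list were at the background, with 18 higher (7.38%) and 21 lower (8.61%) without overlap.

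Enzymes against oxidants were lower slightly more often than the background: 13 of 94 without overlap (13.8%, against 8.66%), with 5 higher. Mitochondrial superoxide dismutase (SOD2) measured 38.3, 19.6 and 32.8 FPKM in the control and 14.5, 9.86 and 14.9 FPKM at low oxygen (log2 difference -1.12, SE 0.44, adjusted p = 0.736). The glutathione transferase gst-5 measured 13.9, 4.26 and 29.7 FPKM in the control and 2.44, 2.66 and 0.508 FPKM at low oxygen. Cytochrome P450 genes counted 7 of 67 in each direction (10.4%, against 7.58% higher and 8.66% lower). Among them Cyp1a1, which in vertebrates is switched on through ARNT and the aryl hydrocarbon receptor, measured 11.8, 41.1 and 6.55 FPKM in the control and 3.19, 3.62 and 1.87 FPKM at low oxygen (log2 difference -2.07, SE 0.54, adjusted p = 0.435).

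Apart from the matrix list above, the 5 lists of markers of other cell types overlapped between groups in their summed levels, with differences that were mostly positive for cilia and coelomocytes. Ciliated cell genes had 20 of 132 higher without overlap (15.2%, against 7.58%) and 0 lower, 113 differences positive and a median of log2 0.38, and their summed levels were 221 to 460.1 FPKM in the control and 424 to 644 FPKM at low oxygen. The lowest sum was in control 3, and without that library the median was log2 0.13. The gene foxj1b, for a transcription factor that drives motile cilia, measured 6.61, 9.28 and 1.14 FPKM in the control and 10.7, 11.5 and 46.3 FPKM at low oxygen, and 2 members of the list were at 0 in all 6 libraries. Coelomocyte markers summed to 14764 to 28015 FPKM in the control and 25803 to 35848 FPKM at low oxygen, with 1 of 15 higher without overlap, 12 of 15 differences positive and 1 member at 0. Complement C3 among them measured 142, 233 and 86.3 FPKM in the control and 276, 188 and 602 FPKM at low oxygen, and the list median of log2 0.61 was 0.15 without control 3. Actin cytoskeleton and muscle models summed to 1724 to 2459 FPKM in the control and 1608 to 2097 FPKM at low oxygen, with 2 members at 0. Of the 34 tested, 5 were higher (14.7%) and 1 lower without overlap, 4 higher and 0 lower had an unadjusted p under 0.05, and the median was log2 -0.03. Neuronal models summed to 266 to 623 FPKM and 485 to 749.6 FPKM, with 9 members at 0, and germ line models to 42.8 to 62.3 FPKM and 58.5 to 60.2 FPKM. The part of these markers in the other results was not tested.

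The remaining lists are given against the background of 7.58% higher and 8.66% lower. Without overlap, there were 10 higher and 8 lower of 117 lysosome and autophagy models, 5 and 3 of 46 in Toll, NOD, TNF and NF-kappa-B signalling, 3 and 3 of 92 in DNA replication and the cell cycle, 2 and 3 of 41 in the proteasome, 2 and 3 of 37 in apoptosis, and 2 and 3 of 42 in AMPK, mTOR and energy sensing. The differences were positive in 34 of 46 Toll, NOD, TNF and NF-kappa-B models, with a median of log2 0.40, and in 30 of 42 energy sensing models, with a median of log2 0.32, while DNA replication and the cell cycle lay below the background, at 3.26% in each direction. In the energy sensing list the S6 kinase RPS6KB2, which promotes translation under mTOR, measured 32.6, 9.87 and 13.7 FPKM in the control and 3.55, 7.75 and 3.75 FPKM at low oxygen. Immediate early and stress transcription factors counted 4 higher and 4 lower of 32. Among them KLF2, a zinc finger factor, measured 52.9, 64.9 and 44.0 FPKM in the control and 87.6, 172 and 131 FPKM at low oxygen (log2 difference 1.22, SE 0.47, adjusted p = 0.727).

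**Figure D4:**
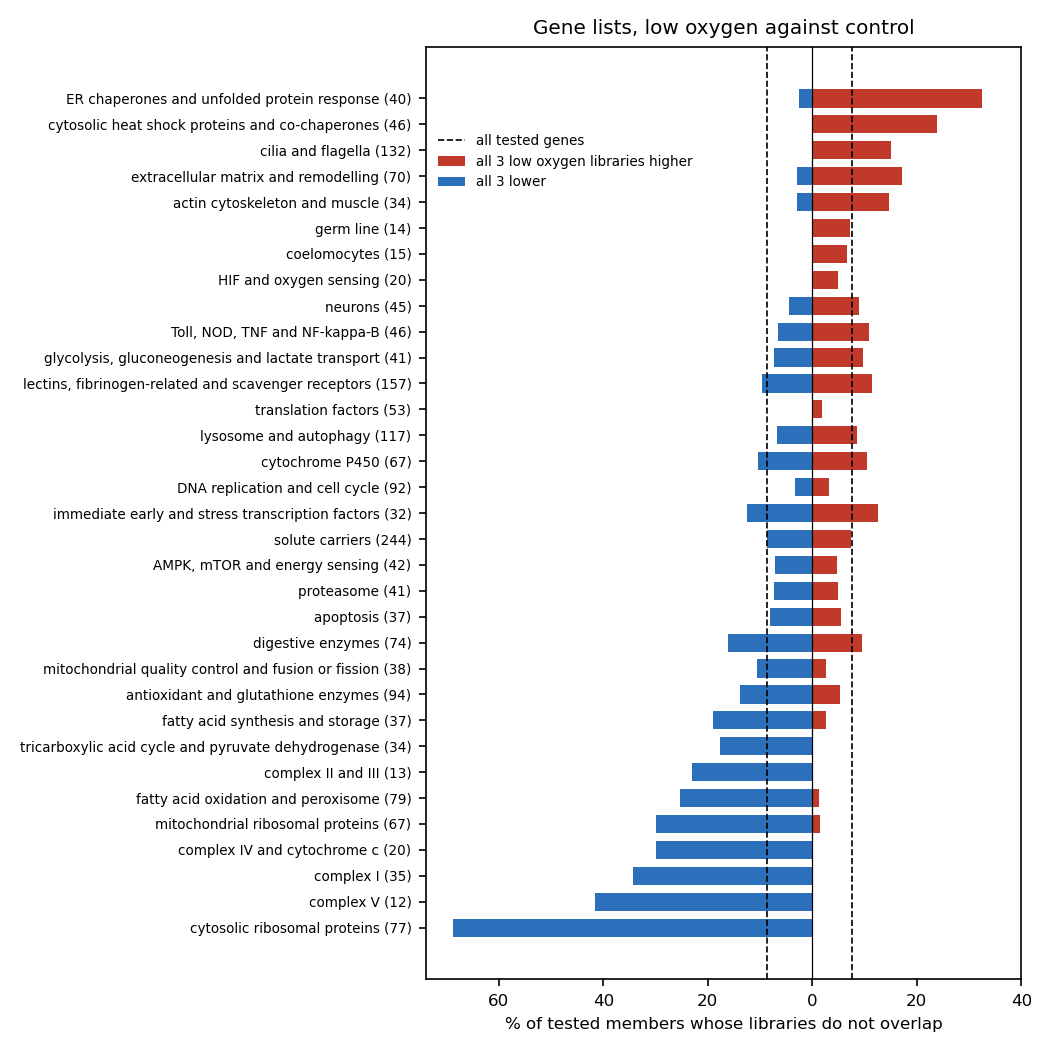
Share of the tested members of each gene list (number in brackets) whose 3 low oxygen libraries all lay above (red, to the right) or all below (blue, to the left) the 3 control libraries, in percent. Dashed lines mark the shares over all tested genes, 7.58% higher and 8.66% lower; cytosolic ribosomal proteins reach 68.8% to the left and ER chaperones 32.5% to the right.

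Combined against high temperature, a step from 7 to 3 mg/L in warm water, gave other animals in which to read these genes, although the step at 18 °C may have differed in size. Of the 15615 genes 34 were called there (0.218%), and the difference between the steps was called for 8 genes (0.0512%). Genes that were higher without overlap at 18 °C were positive at 26 °C in 49.6% of cases, against 48.9% of all genes. Those lower without overlap were negative in 51.5%, against 51.1% of all genes. Of the 12 named higher genes 6 were positive at 26 °C, and of the 12 named lower genes 8 were negative, with 0 of the 24 called there or in the difference. Of the 12 higher genes, 3 were higher without overlap at 26 °C (25%, against 4.97% of all genes) and 1 was lower. The 3 were SPARC, Svep1 and HSP70IV. Of the 12 lower genes, 0 were lower without overlap at 26 °C and 1 was higher. Across all genes the log2 differences at the 2 temperatures had a Pearson r of 0.054 and a Spearman rho of 0.00077 (a description over genes, with no library in common).

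Single genes show both outcomes. SPARC averaged 5.02 FPKM at high temperature and 15.5 FPKM in the combined group, a log2 difference of 1.45 (SE 0.38, adjusted p = 0.317), so the direction at 18 °C recurred, without a call. TST averaged 4.89 and 4.16 FPKM, and ABCC5 3.58 and 3.50 FPKM, so their direction did not recur. ANGPTL7 averaged 65.5 and 33.7 FPKM, a log2 difference of -0.37 (SE 0.88). It measured 16.5, 165 and 15.2 FPKM at high temperature and 43.3, 8.70 and 49.1 FPKM in the combined group. High temperature 2 alone thus carried the higher mean, and the medians, 16.5 and 43.3 FPKM, had the opposite order. Nfil3 averaged 0.362 and 1.57 FPKM, so its direction did not recur. For these 5 genes the difference between the temperatures was not called (adjusted p from 0.135 to 0.812).

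The sign of the ribosomal protein differences went the other way in warm water on the deposited scale. All 77 differences were positive there, with a median of log2 0.95, against 76 negative at 18 °C. Only 1 of the 77 was higher without overlap in warm water, while 4.97% of all genes were. Their summed levels overlapped, at 45731 to 144370 FPKM at high temperature and 96577 to 331520 FPKM in the combined group. The scale enters here: the size used for FPKM was 0.529 and 0.526 of the fragment total in combined 1 and combined 3, and 0.935 to 1.58 of it in the other 10 libraries. When FPKM were rescaled to equal library totals the median of all genes in warm water was log2 -0.59, and that of the ribosomal proteins was 0.08, with 56 positive, which is 0.67 above all genes. For oxidative phosphorylation the median in warm water was log2 0.37 as deposited and -0.47 rescaled, so its direction there flips with the scale, and relative to all genes it was 0.39 and 0.12 above. At 18 °C the rescaling moved the median of all genes only from 0.01 to 0.06, and the medians relative to it stayed at log2 -0.64 and -0.46 for these lists. ER chaperones, at log2 0.45 at 18 °C, had a median of -0.07 in warm water as deposited and -0.82 rescaled. Relative to all genes these were -0.06 and -0.23. Extracellular matrix was at 0.59 as deposited and -0.12 rescaled, and heat shock proteins at 0.76 and -0.03. The sign of both medians thus flips with the scale in warm water as well. When rescaled these medians were 0.47 and 0.56 above all genes. In warm water as deposited, 14 of 46 heat shock models were higher without overlap, against 4.97% of all genes. Of the 46, 4 were called in that step, against 0.218% of all genes. The heat shock list summed to 3233 to 8832 FPKM at high temperature and 17457 to 86414 FPKM in the combined group. None of the list members was called in the difference between temperatures.

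**Figure D5:**
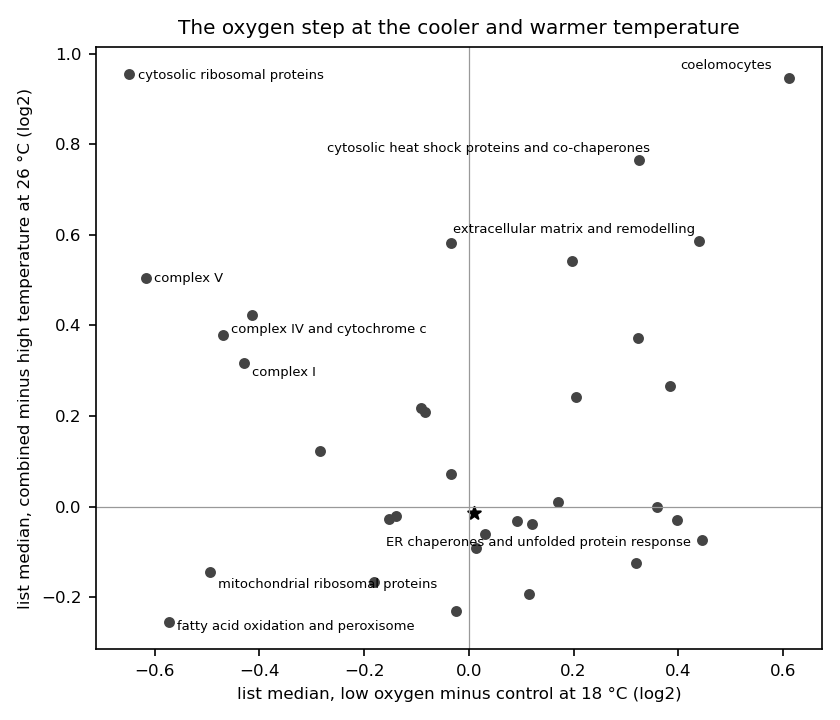
Median log2 difference of each gene list for the oxygen step at 18 °C (x axis) and at 26 °C (y axis, deposited scale), with 1 point per list and a star for all tested genes. Cytosolic ribosomal proteins stand at -0.65 and 0.95; when rescaled to equal library totals the star moves from -0.01 to -0.59 on the y axis.

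The differences also varied with the kind of model. Assembled models were lower without overlap in 9.65% of 3367 cases and higher in 4.48%, while predicted genes were even, at 8.39% lower and 8.43% higher of 12248. With models ranked by length into 5 equal classes, 9.96% of the longest class were higher and 6.47% lower, and 6.24% of the shortest class were higher and 9.16% lower. Across all genes the difference and the log2 length had a Pearson r of 0.049 and a Spearman rho of 0.063. The part of model length in the list results was not tested.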

How the data were processed

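RNA from single sea cucumbers was purified to mRNA, primed with random hexamers and sequenced on an Illumina HiSeq platform, per the labels' protocols. The authors deposited FPKM for 26461 gene models with Swiss-Prot and Pfam names, per the file headers; the sources at hand name no aligner, counter or genome build. In each library, FPKM times length fell on whole multiples of 1 step (100% of values, tolerance 0.001), which gave back the fragments; the size behind FPKM was 0.526 to 1.58 of the fragment total. Models passing the filter (1 FPKM or more, 3 libraries or more) were analysed as log2(FPKM + 1) in R 4.3.3 with limma 3.58.1 (lmFit, contrasts.fit, eBayes with trend, two-sided), with 1 mean per group over 12 libraries. Benjamini-Hochberg adjustment ran over all 15615 models, with genes called under 0.05, and every adjusted p is from this fit. The fit was tested on simulated data. Tables were made in Python 3.11.15 with pandas 2.3.3.

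Named genes were the called model, the 12 largest and 12 smallest moderated t among models with a symbol, no overlap between groups and a mean of at least 5 FPKM in the higher group, up to 3 members of each of 35 lists by smallest p, and sentinels; others are marked as chosen after their values were seen. Members and lists were chosen with earlier results of these data known. Lists were described by counts and medians beside those of all genes, with no test. Names come from best matches, mostly in other species. A RefSeq table of symbols shares no identifier with the models and was left unused. Alternatives were other pseudocounts and filters, rescaling by recovered fragment totals, library weights, fewer groups, a replicate block, voom and leaving out each library.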

Additional observations from a re-analysis of the deposited data

Results flagged for a closer look

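The oxygen step differed between the temperatures for 8 models (limma, adjusted p from 0.00136 to 0.0217), and they are listed because that difference itself passed the threshold. In every case the step at 18 °C was near 0 and the step at 26 °C was positive. The difference, as the log2 change at 18 °C less that at 26 °C, was -3.822 for SrpRalpha, the receptor subunit that docks the signal recognition particle at the ER, and -4.059 for an assembled model matched to a retroelement Pol polyprotein (pol). It was -5.861 and -4.74 for 2 predicted models without a name, on chromosomes 21 and 20, and -7.392, -5.272, -3.426 and -3.152 for 4 assembled models without a name. SrpRalpha measured 10.3, 12.5 and 12.7 FPKM in the control and 13.5, 14.1 and 12.8 FPKM at low oxygen, against 18.7, 16.7 and 40.1 FPKM at high temperature and 306, 466 and 411 FPKM in the combined group. Both unnamed predicted models were at 0 in all 6 libraries at 18 °C. Apart from SrpRalpha and the model on chromosome 21, these models passed the filter only because the combined libraries counted. They entered the test through the group in which they are high, so their calls are not independent of the filter. Voom on recovered fragments called 0 of these differences, with 962 models at an unadjusted p under 0.05, and their cause was not tested.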

How the results depend on the processing

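The number of genes called for low oxygen against control, 1 as reported, was 0 with a pseudocount of 0.1 or 5, with a filter at 5 FPKM, with the 2 groups alone or with voom on recovered fragments, 2 without a filter or after rescaling, and 185 (46 higher, 139 lower) with library weights, which gave control 1 and control 3 weights of 0.673 and 0.648 and control 2 a weight of 5.46. Leaving out 1 library gave 0 to 6, the highest without combined 2. For the oxygen step at 26 °C the 34 calls became 22 with a pseudocount of 0.1 or after rescaling, 2 with its groups alone, and 22 to 67 with 1 library left out. For the difference between temperatures the 8 calls became 1 with a pseudocount of 0.1, 4 without a filter, 3 with a filter at 5 FPKM, 2 after rescaling, 23 with library weights, 0 with voom and 2 to 18 with 1 library left out. With the replicate number as a block these counts were 0, 43 and 2; libraries with the same number did not deviate together (r of -0.108, -0.091 and -0.114), so the numbers were not taken as pairs. The called model was past the threshold in 5 of 21 alternatives (adjusted p from 0.00242 to 0.432). Differences near 0 changed sign: ldha was -0.003 with a pseudocount of 5, -0.006 with voom and -0.215 to 0.376 with 1 library left out, Pdk2 -0.636 to 0.24, soma ferritin -0.19 to 0.491, globin C -0.349 to 0.752 and the unnamed globin evm_TU_Chr2_1005 -0.852 to 0.148, and Lgmn -0.318 to 0.527. The cause of these shifts was not tested. List medians moved by more than the spread of the libraries in 9 of 648 values and changed sign in 25, in 10 lists with medians of -0.15 to 0.17. At 8146906 to 10855050 fragments per library, depth limits models near 1 FPKM most.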
